A study of Chelonia mydas with 15 samples.

Results

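The genes described here build the contacts that hold embryonic cells to each other and to the matrix around them: classical cadherins and their catenins, the tight junction proteins, and the integrins. They were taken from gene expression measured by RNA sequencing in embryos of the green sea turtle, Chelonia mydas. Members are the annotated genes whose symbol starts with CDH, CLDN, ITGA, ITGB or TJP and a number (ITGAV included), with OCLN, EPCAM, F11R and the CTNNA and CTNND catenins, and with 10 or more counts summed over the 15 libraries. The rule kept 63 of 23730 named genes and used no difference between groups. Of 66 genes that match by name, 3 fell below the threshold: CDH17 had 3 counts, and CLDN14 and CDH19 had 0, which allows up to 0.0103 CPM over all libraries (counting error only). Just inside it lay CDH15 with 15 counts and CLDN11 with 21.

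The hypoxia group was 5 libraries of embryos from eggs held for 36 h below 8 mmHg of oxygen, sealed in nitrogen-filled bags in sand. The normoxia group was 5 libraries from eggs kept 36 h in sand at about 159 mmHg, the oxygen tension of air. Both incubations ran at 26 to 28 °C. The freshly laid group was 5 libraries of embryos, each removed from its egg no later than 1 h after laying. The study asks how embryos that stop developing in the oviduct restart after laying, and what low oxygen does to that restart. The labels state neither the female nor the clutch of an egg, nor any pooling, so p-values reflect the variation among these libraries, which may be partly technical.

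Classical cadherins bind like cadherins on the next cell. Type I members such as E-cadherin (CDH1) and N-cadherin (CDH2) hold epithelia and neural tissue together, while type II members sort cell populations of the neural tube, neural crest and mesoderm. Alpha catenins tie the cadherin complex to actin, and p120 catenin (CTNND1) keeps cadherins at the surface. Claudins and occludin (OCLN) form the tight junction seal, and ZO proteins such as TJP1 and TJP3 are its scaffold. Integrins pair an alpha with a beta chain to bind fibronectin, laminin, collagen or other cells. At gastrulation in amniotes, epiblast cells loosen such contacts to become mesoderm, and ectoderm and endoderm keep them as epithelia.

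Counts in named genes totalled 17.6 to 20.8 M per hypoxia library, 18.3 to 26.8 M per normoxia library and 14.5 to 21.8 M per freshly laid library (M, 1000000 counts). No pair of libraries agreed within counting noise. Levels below are CPM, counts per 1000000 of the library total after TMM scaling, which corrects for library composition. The TMM factors were 0.785 to 0.904 in hypoxia and 1.00 to 1.14 elsewhere, so hypoxia changes depend on this scaling more than the others. With total counts alone, the median log2 fold change of all tested genes moved by -0.31 for hypoxia against freshly laid embryos and by -0.32 for hypoxia against normoxia. Changes are reported relative to the TMM scaling. RNA of whole embryos was measured, so fewer cells of a type and less RNA per cell cannot be told apart.

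Ranked by mean CPM per kilobase of counted exon, which lets genes be compared, EPCAM led the set in every group. EPCAM, an epithelial adhesion protein that works with claudins, had 557, 471 and 813 CPM per kb in hypoxia, normoxia and freshly laid embryos. F11R, the junctional adhesion molecule JAM-A, came next with 283, 249.6 and 292 CPM per kb in the same order of groups. CDH2 had 60.03, 75.7 and 147 CPM per kb, and CTNNA1, the ubiquitous alpha catenin, 67.9, 56.3 and 77 CPM per kb. The beta chain shared by most integrins, ITGB1, had 77.5, 72.3 and 75.9 CPM per kb, and OCLN 59.1, 52.2 and 68.3 CPM per kb. The integrin alpha chains carried, summed per kb, 97.6 ± 21 in hypoxia, 84 ± 2.41 in normoxia and 159 ± 21.7 in freshly laid embryos (mean ± SD, n = 5 each), and the beta chains 153 ± 20.8 in hypoxia, 122 ± 14 in normoxia and 121 ± 16.8 in freshly laid embryos. The summed level of the 12 claudins was lower, at 50.8 ± 14.4 in hypoxia, 42.5 ± 3.44 in normoxia and 55.6 ± 17.3 in freshly laid embryos CPM per kb, and CLDN19 held the largest share in each group. The type II cadherins summed to 22.9 ± 6.28 in hypoxia, 50.3 ± 11.1 in normoxia and 20.003 ± 9.31 in freshly laid embryos CPM per kb. In normoxia they stood above both other groups, with CDH11 alone giving 48.9% of the sum. CDH1 and CDH3 (P-cadherin) carry locus numbers in the deposited table and so are not members. The RefSeq table of assembly rCheMyd1.pri.v2 gives their symbols. CDH3 was well expressed at 124, 151 and 180.0 CPM per kb and CDH1 less so at 14.2, 12.6 and 13.9 CPM per kb. A mean of at least 1 CPM was reached by 49 members in each group.

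**Figure D1:**
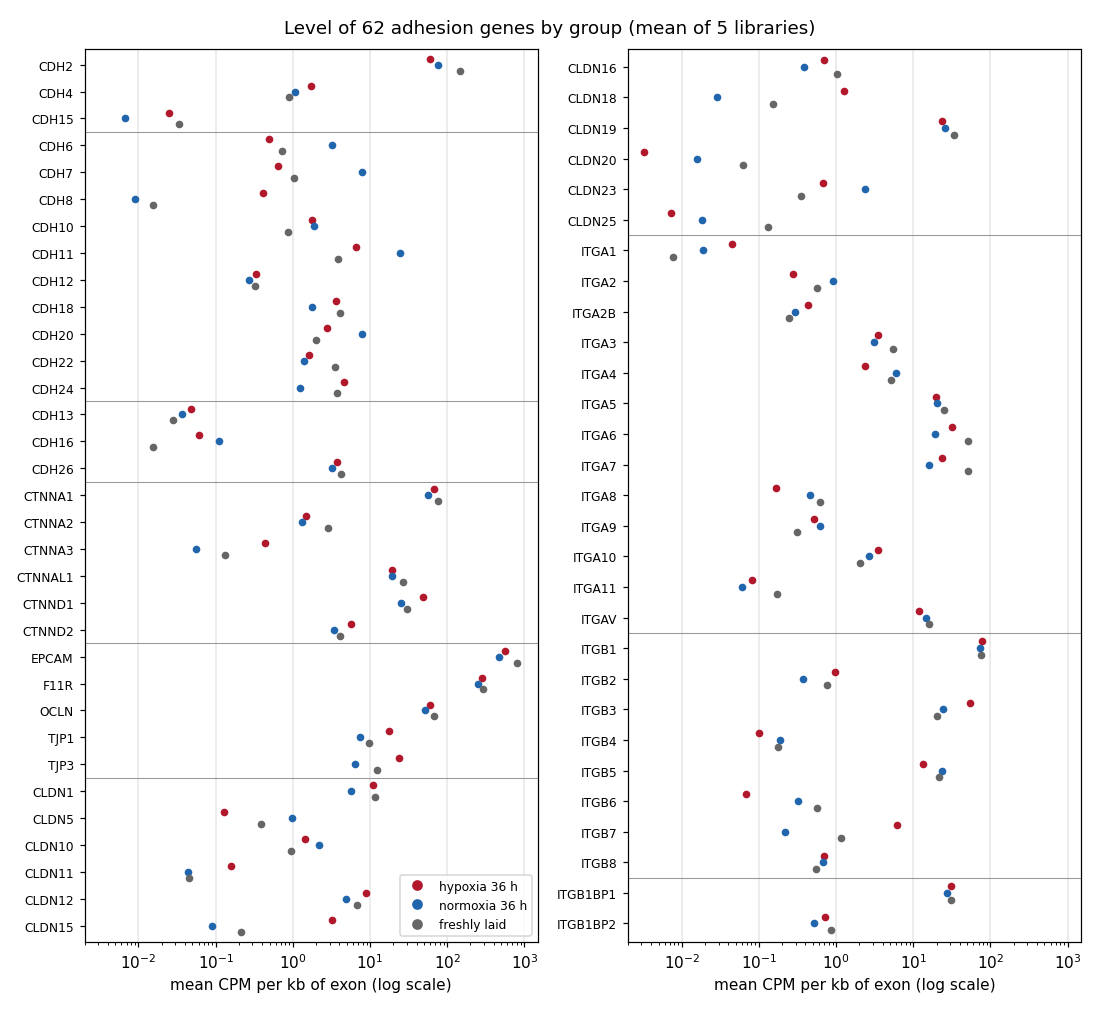
Mean CPM per kb of counted exon (log scale) of 62 adhesion genes in hypoxia, normoxia and freshly laid embryos (5 libraries each), in blocks by role. EPCAM and F11R lie at the right end, and CDH6, CDH7, CDH11 and CDH20 have their normoxia point to the right of the other two.

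Of the 63 members, 54 had enough counts in enough libraries for the edgeR quasi-likelihood test. It was run over all 16639 testable genes, and a gene is called at an adjusted p under 0.05. A gene could enter the test through the group where it is high, so counts of called members are descriptions. The p-values of members with few counts outside that group, such as CLDN15 and CTNNA3, are descriptions too. Between hypoxia and normoxia, 11 of 54 members were higher and 9 lower, together 37.0%, where 48.8% of all tested genes were called (25.7% higher, 23.2% lower). For hypoxia against freshly laid embryos 8 were higher and 9 lower, together 31.5%, against 40.3% of all tested genes (20.9% higher, 19.4% lower). For normoxia against freshly laid embryos 6 were higher and 9 lower, together 27.8%, against 31.2% of all tested genes (15.2% higher, 16.1% lower). In each comparison the members' share lay below that of all tested genes, and the difference between these shares was not tested. Median log2 fold changes of the members were 0.20, -0.12 and -0.37 in these 3 comparisons, where all tested genes had 0.06, 0.03 and -0.00. With total-count scaling the members split into 8 higher and 11 lower for hypoxia against normoxia, and into 6 higher and 17 lower for hypoxia against freshly laid embryos. Of all 16639 tested genes, that scaling called 2674 higher and 5600 lower in the former comparison, and 2088 higher and 5259 lower in the latter. Comparisons that share the freshly laid libraries, or a 36 h group, are not independent of each other. By their calls, CDH6, CDH7, CDH11, CDH20 and CLDN23 were higher in normoxia than in freshly laid embryos and lower in hypoxia than in normoxia. TJP3 and ITGB7 had the opposite order, lowest in normoxia and highest in hypoxia. CLDN15, CTNND1, ITGB3 and TJP1 were higher in hypoxia than in both other groups, while ITGA2 and ITGB5 were lower in hypoxia than in both. CDH2, CDH22, EPCAM and ITGA7 were lower in both 36 h groups than in freshly laid embryos. No comparison called 25 of the 54 tested members. The matching share of all tested genes is not given here, so this count is a description only.

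**Figure D2:**
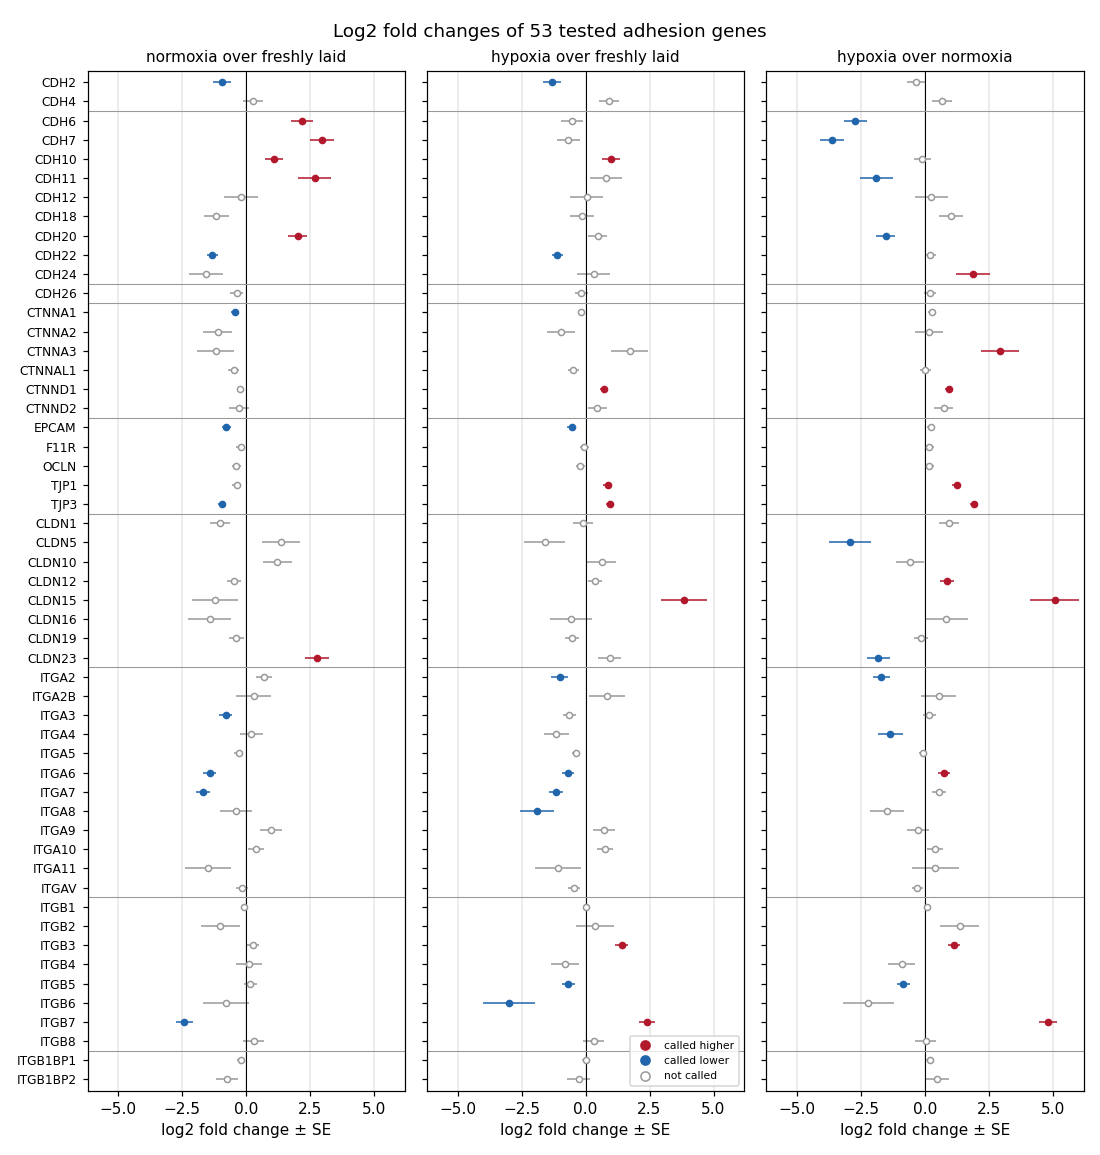
Log2 fold change ± SE of 53 tested members in the 3 comparisons, in blocks by role. Filled points were called by the edgeR test: red higher, blue lower. Most type II cadherins with a call are red in normoxia over freshly laid and blue in hypoxia over normoxia, and TJP1 and TJP3 are red in both hypoxia panels.

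Type II cadherins were the group of members with the most calls between normoxia and freshly laid embryos. Of 9 tested, 5 were higher and 1 lower in normoxia than in freshly laid embryos, with a median log2 fold change of 1.08, where 15.2% of all tested genes were higher and 16.1% lower. In hypoxia against normoxia 4 were lower and 1 higher (23.2% and 25.7% of all tested genes), and in hypoxia against freshly laid embryos 1 was higher and 1 lower (20.9% and 19.4%). The 5 calls became 4 under 6 of the alternative settings, each time through CDH10. Without freshly laid replicate 2 there were 4 higher and 3 lower in normoxia than in freshly laid embryos, the added lower ones being CDH18 (log2 -1.42) and CDH24 (log2 -1.86), and CDH18 was also called higher in hypoxia than in normoxia (log2 1.01).

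CDH7, known in birds from migrating neural crest cells, had the largest change among them. It had 2.14, 1.69, 2.15, 3.78 and 1.79 CPM in the hypoxia libraries, 42.9, 43.4, 25.5, 17.9 and 13 CPM in the normoxia libraries and 7.41, 1.96, 1.33, 5.26 and 2.52 CPM in the freshly laid libraries. Every normoxia library lay above every library of the other groups, and hypoxia and freshly laid libraries overlapped. The log2 fold change was -3.62 ± 0.48, edgeR adjusted p = 1.01e-05 for hypoxia against normoxia and 2.95 ± 0.46, edgeR adjusted p = 0.000203 for normoxia against freshly laid embryos. CDH6, expressed in neural folds, early crest and kidney of other vertebrates, had 1.39, 1.59, 7.19, 6.88 and 3.25 CPM in the hypoxia libraries, 24.6, 27.5, 33.9, 29.9 and 17.3 CPM in the normoxia libraries and 7.66, 2.93, 8.51, 6.34 and 3.9 CPM in the freshly laid libraries. Again the normoxia libraries stood alone at the top. Its log2 fold changes were -2.71 ± 0.44, edgeR adjusted p = 8.1e-05 for hypoxia against normoxia, and 2.18 ± 0.43, edgeR adjusted p = 0.00123 for normoxia against freshly laid embryos. CDH11, a cadherin of mesenchyme, had 35, 7.65, 37, 39.4 and 11.3 CPM in hypoxia, 64.9, 137, 117, 93.9 and 70.1 CPM in normoxia and 13.4, 1.67, 2.35, 22.3 and 35.6 CPM in freshly laid embryos. All normoxia values exceeded all others, although hypoxia ranged widely: replicates 2 and 5 had 7.65 and 11.3 CPM, and the other hypoxia libraries 35.0 to 39.4 CPM. For CDH11 the log2 fold change was 2.67 ± 0.65, edgeR adjusted p = 0.00536, for normoxia against freshly laid embryos, and 3.27 without freshly laid replicate 5. Between hypoxia and normoxia it was -1.89 ± 0.63, edgeR adjusted p = 0.02, which was no longer called with neighbouring normoxia libraries summed (log2 -1.81), and its adjusted p ran from 0.00196 to 0.0624 over the 23 alternatives. CDH20, related to CDH7 and expressed in neural crest and neural tube of other vertebrates, had 14, 8.64, 7.45, 13.6 and 6.69 CPM in hypoxia, 50.3, 22.4, 26.6, 25.9 and 19.9 CPM in normoxia and 3.89, 3.8, 11.9, 11.2 and 5.33 CPM in freshly laid embryos. The normoxia libraries lay above the rest, replicate 1 farthest. CDH20 changed by -1.52 ± 0.36, edgeR adjusted p = 0.00226, for hypoxia against normoxia, and by 2.002 ± 0.37, edgeR adjusted p = 0.000779, for normoxia against freshly laid embryos. CDH6, CDH7, CDH11 and CDH20 were not called between hypoxia and freshly laid embryos, where their log2 fold changes lay between -0.68 and 0.78.

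CDH22 moved the other way. It had 7.18, 11.5, 10.2, 8.68 and 8.88 CPM in the hypoxia libraries, 10.8, 9.09, 6.16, 7.72 and 6.15 CPM in the normoxia libraries and 18.5, 17.4, 17.4, 25.1 and 21.5 CPM in the freshly laid libraries. The freshly laid libraries lay above all 36 h libraries, and the hypoxia and normoxia libraries overlapped. Its log2 fold change was -1.11 ± 0.22, edgeR adjusted p = 0.000642 for hypoxia, and -1.33 ± 0.22, edgeR adjusted p = 0.000297 for normoxia, both against freshly laid embryos. CDH10 was the type II member called higher in both 36 h groups, at low levels: it averaged 5.9 ± 1.66 CPM in hypoxia, 6.28 ± 1.28 CPM in normoxia and 2.96 ± 1.42 CPM in freshly laid embryos (SD, n = 5 each). In hypoxia over freshly laid embryos CDH10 changed by 0.99 ± 0.35, edgeR adjusted p = 0.0293, which was no longer called without hypoxia replicate 1 or 4 or freshly laid replicate 2 or 5 (log2 0.81 to 0.91) or with total-count scaling or a fit of the 10 libraries compared alone (log2 0.68 to 0.99), and its adjusted p ran from 0.00978 to 0.131 over the 23 alternatives. For normoxia against freshly laid embryos it was 1.08 ± 0.35, edgeR adjusted p = 0.0243, which was no longer called without normoxia replicate 1 or 4 or freshly laid replicate 2 or 5 (log2 0.91 to 1.03) or with a term for the index number or neighbouring normoxia libraries summed (log2 0.998 to 1.14), and its adjusted p ran from 0.00455 to 0.0663 over the 23 alternatives. CDH24 averaged 14.9 ± 6.17 CPM in hypoxia, 4.03 ± 1.43 CPM in normoxia and 12 ± 16.7 CPM in freshly laid embryos (SD, n = 5 each), the last mean carried by replicate 4 with 41.5 CPM. Its call in hypoxia against normoxia was 1.88 ± 0.67, edgeR adjusted p = 0.0278, and it was no longer called without hypoxia replicate 1 or normoxia replicate 1, 4 or 5 (log2 1.76 to 1.82) or with total-count scaling, a term for the index number or neighbouring normoxia libraries summed (log2 1.58 to 1.92), and its adjusted p ran from 0.00152 to 0.0858 over the 23 alternatives. With freshly laid replicate 4 left out, CDH24 was also called in hypoxia against freshly laid embryos, at a log2 fold change of 1.68 against 0.31 with it. In normoxia against freshly laid embryos CDH24 stood at -1.57 ± 0.67 (edgeR adjusted p = 0.0818), and it was called without freshly laid replicate 1 or 2 (log2 -1.86 to -1.82), and its adjusted p ran from 0.0305 to 0.78 over the 23 alternatives. CDH12 and CDH18 were not called with all libraries, with means of 1.2, 1.0 and 1.17 CPM and 17.8, 8.8 and 19.8 CPM in hypoxia, normoxia and freshly laid embryos. CDH9, which carries a locus number, had 1.38, 0.702 and 0.70 CPM and was not called. CDH6, CDH9, CDH10, CDH12 and CDH18 lie in this order on one stretch of a chromosome in the deposited coordinates. Between CDH6 and CDH9 lie 4 annotated genes, and between CDH9 and CDH10 there are 0. A further 2 lie between CDH10 and CDH12 and 1 between CDH12 and CDH18.

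**Figure D3:**
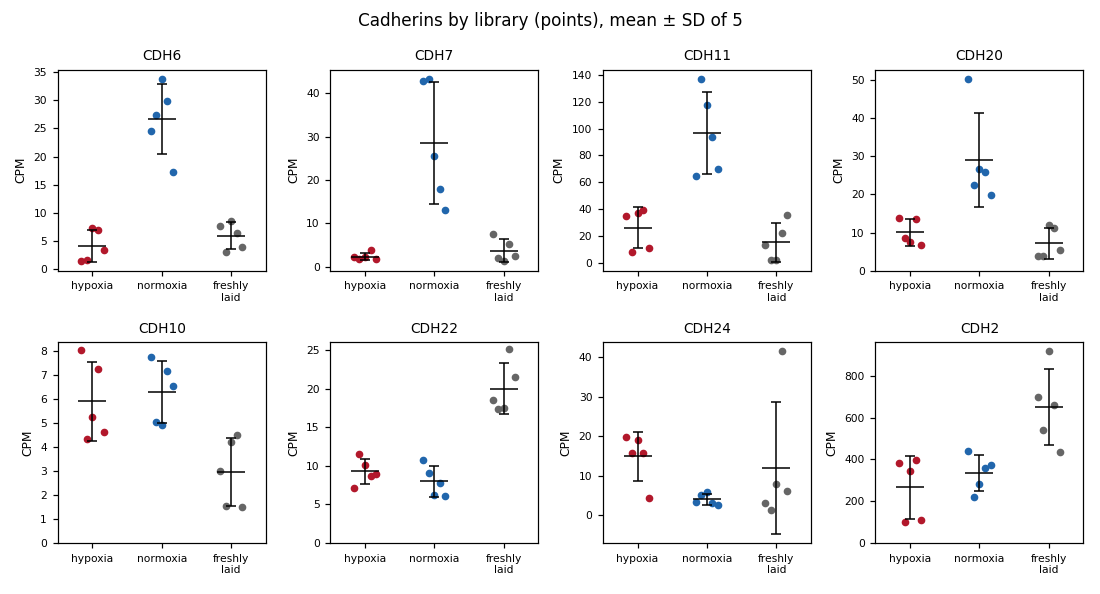
CPM of 8 cadherins in each library (points, axes start at 0 or below), with the group mean ± SD of 5. CDH6, CDH7, CDH11 and CDH20 have all normoxia points above the others, CDH22 has all freshly laid points above the others, and 2 hypoxia libraries (replicates 2 and 5) lie low for CDH2 and CDH11.

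Among the members, N-cadherin (CDH2) was the most expressed classical cadherin, though below the non-member CDH3 per kb in every group, and fell after laying. It had 382, 98.2, 344, 397 and 108 CPM in the hypoxia libraries, 442, 222, 282, 357 and 373 CPM in the normoxia libraries and 699, 542, 920.4, 659 and 433 CPM in the freshly laid libraries. The hypoxia libraries lay below all freshly laid libraries and in 2 clusters: replicates 2 and 5 at 98.2 and 108 CPM, the other 3 between 344 and 397 CPM. Normoxia libraries overlapped both groups. For hypoxia against freshly laid embryos the log2 fold change was -1.29 ± 0.35, edgeR adjusted p = 0.00728. For normoxia against freshly laid embryos it was -0.96 ± 0.35, edgeR adjusted p = 0.045, which was no longer called without normoxia replicate 2, 3, 4 or 5 or freshly laid replicate 1, 2, 3 or 4 (log2 -1.02 to -0.80) or with total-count scaling or neighbouring normoxia libraries summed (log2 -0.95 to -0.88), and its adjusted p ran from 0.0035 to 0.165 over the 23 alternatives. The 2 low hypoxia libraries were also the lowest of that group for CDH11 and ITGA7, and its highest for the summed epiblast markers (526, 1196, 747, 779 and 1037 CPM in hypoxia replicates 1 to 5). What sets these 2 libraries apart was not tested. CDH4 (R-cadherin), found in retina and brain of other vertebrates, averaged 14.5, 9.08 and 7.61 CPM in hypoxia, normoxia and freshly laid embryos and was not called. The muscle cadherin CDH15 was not tested, with 5, 2 and 8 counts summed over the 5 libraries of each group. E-cadherin, CDH1, named through the later assembly, had 70.2, 73.1, 69.3, 49.4 and 74.1 CPM in the hypoxia libraries, 59.5, 70.01, 70.8, 45.9 and 53.7 CPM in the normoxia libraries and 88.5, 75.9, 50.02, 48.3 and 66.4 CPM in the freshly laid libraries. The groups overlapped throughout, and CDH1 was called in no comparison (log2 fold changes 0.16, 0.03 and -0.13 for hypoxia against normoxia, hypoxia against freshly laid and normoxia against freshly laid embryos). CDH3 averaged 434 ± 134 CPM in hypoxia, 529.6 ± 70.2 CPM in normoxia and 629.6 ± 115 CPM in freshly laid embryos (SD, n = 5 each). Its log2 fold change for hypoxia against freshly laid embryos was -0.54 ± 0.19, edgeR adjusted p = 0.0322, and it was no longer called without hypoxia replicate 1, 2 or 5 or freshly laid replicate 4 or 5 (log2 -0.51 to -0.42) or with a fit of the 10 libraries compared alone (log2 -0.54), and its adjusted p ran from 0.00272 to 0.0818 over the 23 alternatives. Of the other cadherins, CDH26 averaged 18, 15.6 and 20.2 CPM and was not called, and CDH13 and CDH16 were not tested, each under 1 CPM in every library.

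The tight junction scaffold genes TJP1 and TJP3 rose in hypoxia. Both were higher in hypoxia than in freshly laid embryos and than in normoxia, and EPCAM was lower in hypoxia than in freshly laid embryos. In normoxia against freshly laid embryos, EPCAM and TJP3 were lower. TJP1 and TJP3 stayed called in hypoxia against both other groups under all 23 alternatives. TJP3 (ZO-3), the ZO protein limited to epithelia, had 88.5, 103, 69.6, 68.8 and 91.1 CPM in the hypoxia libraries, 19.8, 21.5, 23.9, 25.1 and 21.7 CPM in the normoxia libraries and 40.9, 39.4, 40.8, 49.6 and 47.1 CPM in the freshly laid libraries. The 3 groups did not overlap, with hypoxia highest and normoxia lowest. Its log2 fold changes were 1.91 ± 0.14, edgeR adjusted p = 2.13e-08 for hypoxia against normoxia, 0.95 ± 0.14 for hypoxia against freshly laid (adjusted p = 4.99e-05) and -0.96 ± 0.14 for normoxia against freshly laid embryos (adjusted p = 0.000118). TJP1 (ZO-1) had 95.6, 132, 117, 125 and 167 CPM in the hypoxia libraries, 64.2, 51.2, 53.3, 49.8 and 51.3 CPM in the normoxia libraries and 69.3, 61.2, 90.8, 78.9 and 48.5 CPM in the freshly laid libraries. Every hypoxia library was above every other library. The log2 fold changes of TJP1 were 1.24 ± 0.17, edgeR adjusted p = 1.8e-05 against normoxia, and 0.87 ± 0.17 against freshly laid embryos (adjusted p = 0.000734).

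EPCAM, OCLN and F11R, membrane proteins of the junction, were not higher in hypoxia by any call. EPCAM had 812, 798, 974, 1093 and 1029 CPM in the hypoxia libraries, 841, 627, 805, 843 and 867 CPM in the normoxia libraries and 1933, 1472, 1426, 956 and 1085 CPM in the freshly laid libraries. All freshly laid libraries lay above all normoxia libraries, and the hypoxia libraries overlapped both. EPCAM was lower in hypoxia than in freshly laid embryos at -0.55 ± 0.17, edgeR adjusted p = 0.0176, and it was no longer called without freshly laid replicate 1 (log2 -0.39), and its adjusted p ran from 0.000718 to 0.0607 over the 23 alternatives. In normoxia against freshly laid embryos it was lower at -0.79 ± 0.17, edgeR adjusted p = 0.00263. OCLN had 115, 176, 158, 184 and 193 CPM in the hypoxia libraries, 128, 113, 146, 154 and 187 CPM in the normoxia libraries and 211, 199.8, 231, 127 and 185 CPM in the freshly laid libraries. F11R had 745, 554, 539, 552 and 678 CPM in the hypoxia libraries, 731, 383, 427, 668 and 494 CPM in the normoxia libraries and 535, 606, 629, 634 and 754 CPM in the freshly laid libraries. The groups overlapped for both genes, and neither was called in any comparison, with log2 fold changes between -0.39 and 0.18. OCLN was called with total-count scaling (log2 -0.52), and its adjusted p ran from 0.0195 to 0.673 over the 23 alternatives for hypoxia against freshly laid embryos, and for normoxia against freshly laid embryos it was called without freshly laid replicate 4 (log2 -0.51), and its adjusted p ran from 0.0364 to 0.231 over the 23 alternatives. The 11 markers of extraembryonic and surface ectoderm found were led by the keratins KRT8 and KRT18. Their summed level was 2691 to 4759 CPM in hypoxia, 833 to 1406 CPM in normoxia and 843 to 1727 CPM in freshly laid embryos, above the other groups in every hypoxia library. KRT8 with means of 1472, 236 and 551 CPM and KRT18 with 2147, 386 and 547 CPM, in the same order of groups, made up most of the sum. Of the 10 markers tested, KRT8, KRT18 and TFAP2A were higher in hypoxia than in normoxia (25.7% of all tested genes). KRT23, DLX5 and HAND1 were lower (23.2%), at log2 fold changes of -6.02, -1.04 and -2.16. Against freshly laid embryos 4 were higher and 0 lower in hypoxia (20.9% and 19.4% of all tested genes). Normoxia likewise had 4 higher and 1 lower against freshly laid embryos (15.2% and 16.1%). The part of these markers in the rise of TJP1 and TJP3 was not tested.

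Among the catenins p120, CTNND1, was higher in hypoxia and CTNNA1 lower in normoxia. CTNND1 had 324, 276, 263, 220.2 and 358 CPM in the hypoxia libraries, 148, 141, 147, 167 and 149.9 CPM in the normoxia libraries and 169, 169, 147, 185 and 211 CPM in the freshly laid libraries. All hypoxia libraries lay above all others. Its log2 fold change was 0.94 ± 0.14, edgeR adjusted p = 2.89e-05 for hypoxia against normoxia, and 0.71 ± 0.14 for hypoxia against freshly laid embryos (adjusted p = 0.000586). CTNNA1 had 260.3, 224, 268, 299.9 and 240.0 CPM in the hypoxia libraries, 237, 212, 194, 196 and 233 CPM in the normoxia libraries and 324, 289.5, 351, 249.7 and 252 CPM in the freshly laid libraries. Normoxia and freshly laid libraries did not overlap, and hypoxia overlapped both. In normoxia against freshly laid embryos CTNNA1 changed by -0.45 ± 0.13, edgeR adjusted p = 0.0129, which was no longer called with neighbouring normoxia libraries summed (log2 -0.43), and its adjusted p ran from 0.0065 to 0.0683 over the 23 alternatives. CTNNA3 (alpha-T catenin), known from heart and testis, had 2.2, 1.69, 1.2, 5.89 and 1.33 CPM in hypoxia, 0, 0.464, 0.415, 0.266 and 0.429 CPM in normoxia and 1.95, 0.288, 0.724, 0.358 and 0.413 CPM in freshly laid embryos. Hypoxia lay above normoxia throughout and overlapped the freshly laid libraries. The log2 fold change for hypoxia against normoxia was 2.93 ± 0.75, edgeR adjusted p = 0.00376, and 2.32 without hypoxia replicate 4, the highest library. CTNNA3 had 203, 39 and 64 counts in hypoxia, normoxia and freshly laid embryos. It could have entered the test through hypoxia, so its p-values are descriptions. In hypoxia against freshly laid embryos CTNNA3 stood at 1.73 ± 0.71 (edgeR adjusted p = 0.0627), and it was called without normoxia replicate 1 or freshly laid replicate 1 (log2 1.73 to 2.45) or with DESeq2 or limma-voom (log2 1.72 to 1.83), and its adjusted p ran from 0.0143 to 0.233 over the 23 alternatives. The neural catenins CTNNA2 and CTNND2 averaged 5.92, 5.32 and 11.6 CPM and 31.5, 18.9 and 23 CPM in hypoxia, normoxia and freshly laid embryos, and CTNNAL1 (alpha-catulin) 77.7, 76.4 and 108 CPM, with no call. Of 6 catenins, 2 were higher in hypoxia than in normoxia, with a median log2 fold change of 0.50, where 25.7% of all tested genes were higher.

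**Figure D4:**
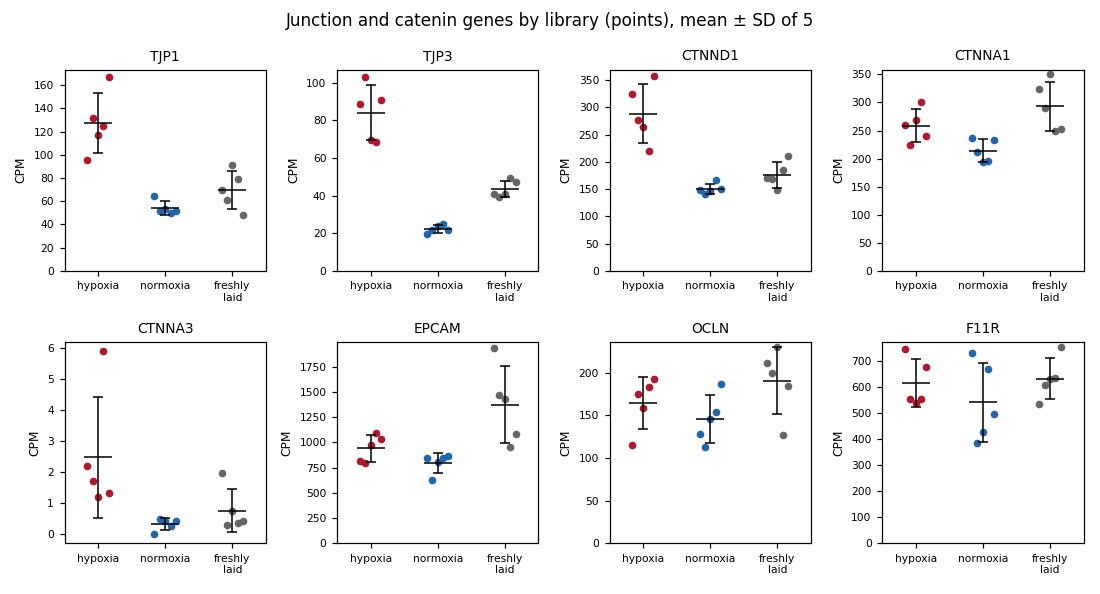
CPM of 8 junction and catenin genes in each library (points, axes start at 0 or below), with the group mean ± SD of 5. TJP1, TJP3 and CTNND1 have all hypoxia points above all others, while OCLN and F11R overlap between the groups.

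Of 8 claudins tested, CLDN12 and CLDN15 were higher and CLDN5 and CLDN23 lower in hypoxia than in normoxia. CLDN15 was higher in hypoxia than in freshly laid embryos, and CLDN23 was higher in normoxia than in freshly laid embryos. The called share of claudins was 50% for hypoxia against normoxia, where 48.8% of all tested genes were called. Against freshly laid embryos it was 12.5% for hypoxia and 12.5% for normoxia, where 40.3% and 31.2% of all tested genes were called. CLDN15, a pore-forming claudin of the gut, had 8.57, 4.97, 0.82, 7.19 and 4.51 CPM in the hypoxia libraries, 0.0482, 0.271, 0.138, 0.133 and 0.143 CPM in the normoxia libraries and 0, 0, 0.483, 0.102 and 1.15 CPM in the freshly laid libraries. All hypoxia libraries lay above all normoxia libraries, and hypoxia replicate 3 was lower than freshly laid replicate 5. CLDN15 changed by 5.07 ± 0.95, edgeR adjusted p = 0.000285 for hypoxia against normoxia. Between hypoxia and freshly laid embryos CLDN15 changed by 3.85 ± 0.88, edgeR adjusted p = 0.00226, and by 5.09 without freshly laid replicate 5. CLDN15 had 436, 18 and 35 counts in hypoxia, normoxia and freshly laid embryos. It could have entered the test through hypoxia, so its p-values are descriptions. CLDN23 had 1.33, 1.48, 1.26, 0.558 and 3.11 CPM in the hypoxia libraries, 3.37, 4.45, 4.22, 6.16 and 9.01 CPM in the normoxia libraries and 1.07, 0.403, 0.905, 0.664 and 0.964 CPM in the freshly laid libraries. All normoxia libraries exceeded all others. CLDN23 changed by -1.81 ± 0.45, edgeR adjusted p = 0.00282, for hypoxia against normoxia, and by 2.76 ± 0.47, edgeR adjusted p = 0.000383, for normoxia against freshly laid embryos. CLDN5, the claudin of endothelium, had 0.232, 0.0547, 0.505, 0.62 and 0.133 CPM in the hypoxia libraries, 2.8, 1.47, 2.22, 1.68 and 3.77 CPM in the normoxia libraries and 0, 0.23, 1.45, 1.18 and 1.79 CPM in the freshly laid libraries. Hypoxia lay below normoxia in every library and the freshly laid libraries spanned both. For hypoxia against normoxia the log2 fold change of CLDN5 was -2.93 ± 0.82, edgeR adjusted p = 0.00663. The 13 blood and endothelium markers found summed to 86.3 to 302 CPM in hypoxia, 164 to 343 CPM in normoxia and 42.2 to 203 CPM in freshly laid embryos. Of the 12 tested, 2 were higher and 1 lower in hypoxia than in normoxia (25.7% and 23.2% of all tested genes). Against freshly laid embryos 3 were higher and 1 lower in hypoxia (20.9% and 19.4%), and 2 higher and 0 lower in normoxia (15.2% and 16.1%). The part of these markers in the CLDN5 values was not tested. CLDN12 had 10.1, 18.7, 14.6, 14.8 and 24.6 CPM in the hypoxia libraries, 5.79, 12.1, 9.18, 8.34 and 10.01 CPM in the normoxia libraries and 8.86, 12.4, 17.8, 14.6 and 10.1 CPM in the freshly laid libraries. Hypoxia was mostly above normoxia, with overlap. CLDN12 changed by 0.87 ± 0.27, edgeR adjusted p = 0.013, for hypoxia against normoxia, and it was no longer called with total-count scaling or a term for the index number (log2 0.53 to 0.62), and its adjusted p ran from 0.00501 to 0.1 over the 23 alternatives. CLDN1, a barrier claudin of epidermis, had 70.9, 10.7, 43.9, 15.7 and 31.3 CPM in the hypoxia libraries, 16, 11.2, 20.7, 25 and 16.4 CPM in the normoxia libraries and 46.4, 36.7, 43.4, 18.2 and 38.2 CPM in the freshly laid libraries. Its hypoxia libraries spread over the whole range of the other groups. It was not called (edgeR adjusted p = 0.0572 for hypoxia against normoxia and 0.0574 for normoxia against freshly laid embryos). In hypoxia against normoxia CLDN1 was called without hypoxia replicate 2 or 4 or normoxia replicate 4 (log2 1.10 to 1.18) or with DESeq2 or a term for the index number (log2 0.93 to 1.06), and its adjusted p ran from 0.0123 to 0.26 over the 23 alternatives, and in normoxia against freshly laid embryos it was called without hypoxia replicate 1, 2 or 4 or freshly laid replicate 4 (log2 -1.21 to -1.04) or with DESeq2, a term for the index number or a fit of the 10 libraries compared alone (log2 -1.23 to -1.02), and its adjusted p ran from 0.00701 to 0.141 over the 23 alternatives. CLDN19, the claudin with the highest level per kb, averaged 32.2, 35.8 and 46.7 CPM in hypoxia, normoxia and freshly laid embryos and was not called, and CLDN10 and CLDN16 stayed uncalled at means of 1.87, 2.82 and 1.22 CPM and 0.797, 0.443 and 1.19 CPM. CLDN1 and CLDN16 are neighbouring genes on opposite strands in the deposited coordinates, 30.8 kb apart.

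Of 8 integrin beta chains tested, ITGB3 and ITGB7 were higher in hypoxia than in both other groups, and ITGB5 was lower in hypoxia than in both. ITGB6 was lower in hypoxia than in freshly laid embryos, and ITGB7 was lower in normoxia than in freshly laid embryos. The called share of beta chains was 37.5% for hypoxia against normoxia, where 48.8% of all tested genes were called. Against freshly laid embryos it was 50% for hypoxia and 12.5% for normoxia, where 40.3% and 31.2% of all tested genes were called. ITGB7, which pairs with ITGA4 or ITGAE on lymphocytes of mammals, had the largest change among the beta chains. It had 23.4, 34.1, 28.4, 15.6 and 19.9 CPM in the hypoxia libraries, 1.01, 0.58, 0.969, 0.709 and 1.0 CPM in the normoxia libraries and 2.39, 5.87, 3.2, 3.93 and 7.48 CPM in the freshly laid libraries. No groups overlapped, with hypoxia at the top and normoxia at the bottom. The log2 fold change of ITGB7 was 4.82 ± 0.36, edgeR adjusted p = 2.24e-08 for hypoxia against normoxia, 2.40 ± 0.32 for hypoxia against freshly laid (adjusted p = 2.02e-05) and -2.42 ± 0.34 for normoxia against freshly laid embryos (adjusted p = 7.68e-05). Its partner ITGA4 averaged 9.01, 22.8 and 19.8 CPM in hypoxia, normoxia and freshly laid embryos, and ITGAE, known only from the later assembly, had 0, 4 and 3 counts per group. ITGAL, a leukocyte alpha chain that pairs with ITGB2 and is also named through the later assembly, had 13.1, 9.73, 16.9, 14.6 and 9.81 CPM in hypoxia, 3.04, 2.24, 1.66, 1.73 and 2.43 CPM in normoxia and 3.39, 7.13, 2.84, 5.16 and 6.61 CPM in freshly laid embryos. Hypoxia lay above both other groups, which overlapped. ITGAL changed by 2.53 ± 0.32, edgeR adjusted p = 5.63e-06, for hypoxia against normoxia, by 1.35 ± 0.30 for hypoxia against freshly laid (adjusted p = 0.00195) and by -1.18 ± 0.31 for normoxia against freshly laid embryos (adjusted p = 0.00796). In that last comparison ITGAL was no longer called with neighbouring normoxia libraries summed (log2 -1.11), and its adjusted p ran from 0.000659 to 0.0502 over the 23 alternatives. ITGB2, the beta chain of leukocytes, averaged 3.12, 1.2 and 2.42 CPM and was not called. The 10 leukocyte markers summed to 23.5 to 133 CPM in hypoxia, 21.2 to 69.7 CPM in normoxia and 11.2 to 30.6 CPM in freshly laid embryos. The medians were 34.9, 44.9 and 18.9 CPM, and the hypoxia top of 133 CPM was replicate 3. Of the 8 tested, 1 was higher and 1 lower in hypoxia than in normoxia (25.7% and 23.2% of all tested genes). Against freshly laid embryos 3 were higher in hypoxia and 4 in normoxia, and 0 were lower. Of all tested genes, 20.9% were higher in hypoxia and 15.2% in normoxia, and 19.4% and 16.1% were lower. PTPRC (CD45) had means of 1.82, 1.83 and 0.174 CPM, and CD3E 0.805, 0.505 and 0.0927 CPM. The part of the leukocyte markers in the ITGB7 and ITGAL values was not tested.

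ITGB3, which pairs with ITGAV or with ITGA2B on platelets, had 272, 197, 352, 211 and 207 CPM in the hypoxia libraries, 75.8, 95.4, 161, 90.9 and 135 CPM in the normoxia libraries and 77.8, 73, 67.9, 102 and 145 CPM in the freshly laid libraries. Every hypoxia library exceeded every other library. ITGB3 changed by 1.15 ± 0.24, edgeR adjusted p = 0.000887, for hypoxia against normoxia, and by 1.41 ± 0.25 for hypoxia against freshly laid embryos (adjusted p = 0.000247). ITGB5, another partner of ITGAV, had 20.03, 36.7, 66.5, 43.2 and 54.5 CPM in the hypoxia libraries, 63.3, 95.4, 93.9, 78 and 65.3 CPM in the normoxia libraries and 90.6, 50.3, 57.2, 72.7 and 84 CPM in the freshly laid libraries. Most hypoxia libraries were low, replicate 1 lowest, with overlap to both groups. Between hypoxia and normoxia the log2 fold change of ITGB5 was -0.84 ± 0.25, edgeR adjusted p = 0.0111. Between hypoxia and freshly laid embryos it was -0.68 ± 0.25, edgeR adjusted p = 0.0399, which was no longer called without hypoxia replicate 1, 2 or 4 or freshly laid replicate 1, 4 or 5 (log2 -0.68 to -0.50) or with a fit of the 10 libraries compared alone or neighbouring normoxia libraries summed (log2 -0.69 to -0.68), and its adjusted p ran from 0.00488 to 0.0967 over the 23 alternatives. ITGB6, an epithelial partner of ITGAV, had 0.0579, 0.383, 0, 0 and 0.862 CPM in the hypoxia libraries, 1.06, 0.503, 0.554, 1.33 and 2.62 CPM in the normoxia libraries and 7.1, 0.403, 1.81, 0.511 and 0.735 CPM in the freshly laid libraries. Its freshly laid mean rested on replicate 1. ITGB6 changed by -2.99 ± 1.03, edgeR adjusted p = 0.0272, for hypoxia against freshly laid embryos, and it was no longer called without hypoxia replicate 1, 3 or 4 or freshly laid replicate 1 (log2 -2.74 to -1.72) or with a term for the index number (log2 -2.41), and its adjusted p ran from 0.0058 to 0.158 over the 23 alternatives. Without hypoxia replicate 5 that change was -4.12. Against normoxia ITGB6 stood at -2.20 ± 1.01 in hypoxia (edgeR adjusted p = 0.0808), and it was called without hypoxia replicate 5 or freshly laid replicate 1 (log2 -3.33 to -2.20) or with total-count scaling, DESeq2 or limma-voom (log2 -2.97 to -2.25), and its adjusted p ran from 0.0225 to 0.242 over the 23 alternatives. ITGB1 had 247, 289, 308, 313 and 312 CPM in the hypoxia libraries, 258, 269.7, 289.7, 261 and 293 CPM in the normoxia libraries and 346, 254, 385, 235 and 219 CPM in the freshly laid libraries. The groups overlapped fully and ITGB1 was called in no comparison, with log2 fold changes of 0.10 ± 0.15 for hypoxia against normoxia, 0.03 ± 0.15 for hypoxia against freshly laid and -0.07 ± 0.15 for normoxia against freshly laid embryos. ITGB4, the beta chain of hemidesmosomes, and ITGB8 averaged 0.715, 1.35 and 1.25 CPM and 6.07, 5.94 and 4.89 CPM in hypoxia, normoxia and freshly laid embryos, uncalled.

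Among the member alpha chains, those called against freshly laid embryos were lower, while ITGAL, which is no member, was higher in hypoxia. Of 12 tested, 4 were lower in hypoxia and 3 in normoxia than in freshly laid embryos and none was higher (edgeR; at an unadjusted p under 0.05, 1 was higher in hypoxia and 2 in normoxia, DESeq2 called 1 higher in hypoxia, and limma-voom called 0 higher in either). In either direction, 33.3% of these chains were called in hypoxia and 25.0% in normoxia, against 40.3% and 31.2% of all tested genes. Called lower were 19.4% and 16.1% of all tested genes. The median log2 fold change of the chains was -0.66 for hypoxia and -0.23 for normoxia, both against freshly laid embryos. The 4 lower in hypoxia became 2 to 8 over the alternatives, 8 of them with total-count scaling and 2 without hypoxia replicate 1 or freshly laid replicate 2, or with a fit of the 10 libraries alone. ITGA7, a laminin receptor of muscle in other vertebrates, had 81.8, 68.4, 103, 139 and 45.1 CPM in the hypoxia libraries, 55.2, 46.5, 51.8, 75.6 and 68.6 CPM in the normoxia libraries and 152, 140.0, 138, 279 and 253 CPM in the freshly laid libraries. Freshly laid libraries lay above all normoxia libraries and nearly all hypoxia libraries. ITGA7 changed by -1.14 ± 0.27, edgeR adjusted p = 0.00303, for hypoxia, and by -1.69 ± 0.28, edgeR adjusted p = 0.000288, for normoxia, both against freshly laid embryos. ITGA6, the laminin receptor of epithelia and stem cells, had 102, 291, 126, 254 and 229 CPM in the hypoxia libraries, 143, 107, 116, 116 and 114 CPM in the normoxia libraries and 376, 413, 282, 302 and 233 CPM in the freshly laid libraries. Normoxia lay below all freshly laid libraries, and hypoxia was split, with replicates 1 and 3 at the normoxia level and the other 3 at 229 to 291 CPM. For normoxia against freshly laid embryos the log2 fold change of ITGA6 was -1.43 ± 0.25, edgeR adjusted p = 0.000426. For hypoxia against freshly laid embryos it was -0.68 ± 0.24, edgeR adjusted p = 0.0325, which was no longer called without hypoxia replicate 1 or 3 or freshly laid replicate 1 or 2 (log2 -0.62 to -0.51) or with a fit of the 10 libraries compared alone (log2 -0.68), and its adjusted p ran from 0.00397 to 0.0886 over the 23 alternatives. For hypoxia against normoxia it was 0.75 ± 0.24, edgeR adjusted p = 0.0164, which was no longer called without hypoxia replicate 2 (log2 0.58) or with total-count scaling, a term for the index number or neighbouring normoxia libraries summed (log2 0.42 to 0.70), and its adjusted p ran from 0.00201 to 0.172 over the 23 alternatives. ITGA2, a collagen receptor, had 2.66, 3.01, 2.78, 3.84 and 1.66 CPM in the hypoxia libraries, 15.9, 6.5, 6.68, 7.14 and 9.25 CPM in the normoxia libraries and 7.6, 6.1, 3.38, 6.08 and 5.0 CPM in the freshly laid libraries. Hypoxia lay below normoxia in every library and overlapped the freshly laid group. ITGA2 changed by -1.70 ± 0.33, edgeR adjusted p = 0.000414, for hypoxia against normoxia, and by -1.01 ± 0.33 for hypoxia against freshly laid embryos (adjusted p = 0.0205). ITGA3, a laminin receptor of basement membranes, had 7.47, 17.9, 11.4, 11.1 and 14 CPM in the hypoxia libraries, 11, 15.8, 10.2, 10.8 and 7.2 CPM in the normoxia libraries and 15.5, 15.9, 18.5, 20.8 and 25.6 CPM in the freshly laid libraries. Its normoxia and freshly laid groups overlapped through normoxia replicate 2. ITGA3 changed by -0.81 ± 0.25, edgeR adjusted p = 0.0228, for normoxia against freshly laid embryos, and it was no longer called without normoxia replicate 3 or 5 or freshly laid replicate 5 (log2 -0.78 to -0.69) or with a term for the index number or neighbouring normoxia libraries summed (log2 -0.81 to -0.60), and its adjusted p ran from 0.00884 to 0.0672 over the 23 alternatives. Between hypoxia and freshly laid embryos it was not called (-0.64 ± 0.25, edgeR adjusted p = 0.0536), and it was called without hypoxia replicate 2, normoxia replicate 2 or 5 or freshly laid replicate 1 (log2 -0.81 to -0.64) or with total-count scaling, DESeq2, limma-voom or a term for the index number (log2 -0.94 to -0.64), and its adjusted p ran from 0.0068 to 0.125 over the 23 alternatives.

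The main fibronectin and vitronectin receptor chains, ITGA5 and ITGAV, were called in no comparison. ITGA5, the fibronectin receptor, had 103, 121, 84, 86.5 and 68.7 CPM in the hypoxia libraries, 95.4, 106, 104, 97.4 and 84 CPM in the normoxia libraries and 101, 103, 107, 134 and 155 CPM in the freshly laid libraries. ITGAV had 87.5, 85.4, 153, 154 and 51.8 CPM in the hypoxia libraries, 121, 133, 117, 134 and 146 CPM in the normoxia libraries and 138, 161, 115, 158 and 152 CPM in the freshly laid libraries. Both overlapped between the groups. For hypoxia against freshly laid embryos ITGA5 had a log2 fold change of -0.37 ± 0.16 (edgeR adjusted p = 0.0711) and was called without hypoxia replicate 2 (log2 -0.49) or with total-count scaling (log2 -0.67), and its adjusted p ran from 0.00331 to 0.174 over the 23 alternatives. ITGAV had -0.44 ± 0.23 in that comparison (edgeR adjusted p = 0.131) and was called without hypoxia replicate 3 or 4 (log2 -0.61) or with total-count scaling (log2 -0.73), and its adjusted p ran from 0.0228 to 0.268 over the 23 alternatives. ITGA4, a receptor for VCAM1 and fibronectin, averaged 9.01 ± 8.07 CPM in hypoxia, 22.8 ± 9.12 CPM in normoxia and 19.8 ± 7.63 CPM in freshly laid embryos (SD, n = 5 each), and hypoxia replicate 4 had 22.5 CPM. Between hypoxia and normoxia its log2 fold change was -1.34 ± 0.47, edgeR adjusted p = 0.0266, which was no longer called without hypoxia replicate 1, 2 or 5 or normoxia replicate 2 or 5 (log2 -1.21 to -1.10) or with neighbouring normoxia libraries summed (log2 -1.20), and its adjusted p ran from 0.000866 to 0.0909 over the 23 alternatives. Without hypoxia replicate 4 it was -2.02. Against freshly laid embryos ITGA4 stood at -1.14 ± 0.47 in hypoxia (edgeR adjusted p = 0.0644), and it was called without hypoxia replicate 4 (log2 -1.81) or with total-count scaling, DESeq2 or limma-voom (log2 -1.50 to -1.14), and its adjusted p ran from 0.00256 to 0.166 over the 23 alternatives. ITGA8, which binds nephronectin in the kidney of mammals, averaged 0.949 ± 0.499 CPM in hypoxia, 2.66 ± 0.941 CPM in normoxia and 3.5 ± 4.0 CPM in freshly laid embryos (SD, n = 5 each), and freshly laid replicate 5 had 10.2 CPM. Between hypoxia and freshly laid embryos the log2 fold change was -1.88 ± 0.66, edgeR adjusted p = 0.0312, which was no longer called without hypoxia replicate 1, 2 or 5 or freshly laid replicate 2 or 5 (log2 -1.85 to -0.95) or with limma-voom or a fit of the 10 libraries compared alone (log2 -1.88 to -1.32), and its adjusted p ran from 0.00986 to 0.206 over the 23 alternatives. Against normoxia ITGA8 stood at -1.49 ± 0.66 in hypoxia (edgeR adjusted p = 0.0704), and it was called without freshly laid replicate 1 or 5 (log2 -1.50 to -1.49) or with total-count scaling, DESeq2, a term for the index number or a fit of the 10 libraries compared alone (log2 -1.98 to -1.52), and its adjusted p ran from 0.0117 to 0.167 over the 23 alternatives. ITGA9, ITGA10, ITGA11 and ITGA2B were not called, with means of 2.5, 3.01 and 1.52 CPM, 19.2, 14.7 and 11.3 CPM, 0.438, 0.328 and 0.932 CPM and 1.85, 1.25 and 1.03 CPM in hypoxia, normoxia and freshly laid embryos. ITGA10 shares 15.2% of its exon bases on the same strand with another annotated gene, so its counts are uncertain. The integrin-binding proteins ITGB1BP1 and ITGB1BP2 averaged 41.8, 36.4 and 41.5 CPM and 3.19, 2.27 and 3.85 CPM, and neither was called.

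**Figure D5:**
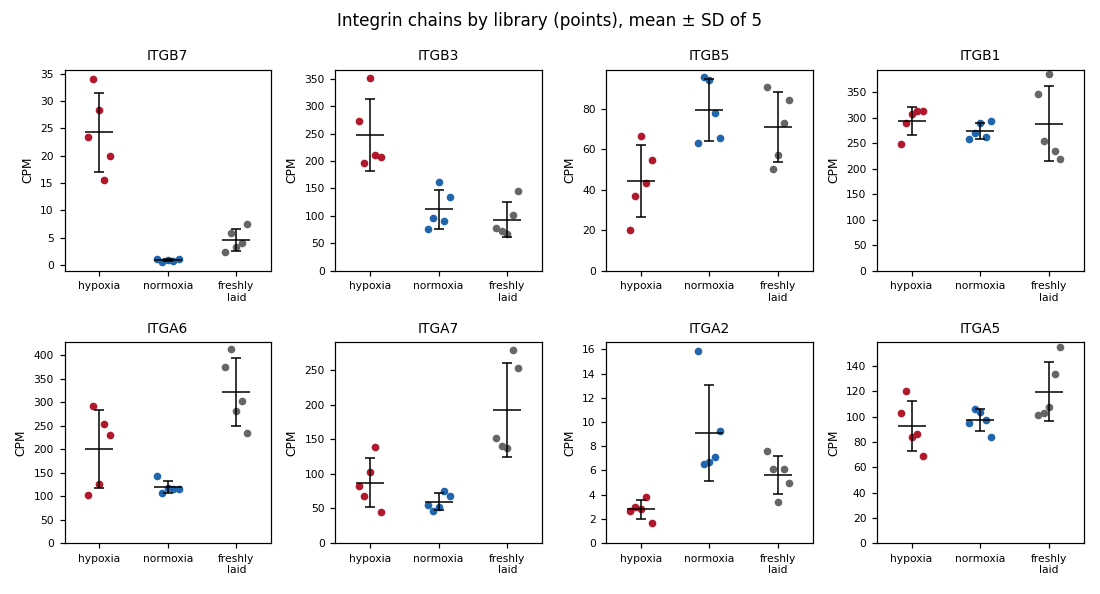
CPM of 8 integrin chains in each library (points, axes start at 0 or below), with the group mean ± SD of 5. ITGB7 separates all 3 groups, ITGB3 has all hypoxia points above the others, ITGB1 overlaps throughout, and 2 hypoxia points of ITGA6 lie at the normoxia level.

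Of the members, 9 did not have enough counts in enough libraries to be tested: CDH8, CDH13, CDH15, CDH16, CLDN11, CLDN18, CLDN20, CLDN25 and ITGA1. The type II cadherin CDH8, a brain cadherin in mammals, had 167, 5 and 6 counts in hypoxia, normoxia and freshly laid embryos, and its hypoxia libraries had 1.22, 4.76, 0, 0.31 and 3.58 CPM. CLDN18, the claudin of stomach and lung, had 81, 3 and 12 counts, with 1.48 and 2.72 CPM in hypoxia replicates 2 and 5 and under 1 CPM elsewhere. Replicates 2 and 5, the low hypoxia libraries for CDH2, were thus the high ones for CDH8 and CLDN18. CLDN20 and CLDN25 had 1, 7 and 18 and 1, 4 and 20 counts in the same order of groups. With no filter on low counts, CDH8 and CLDN18 were called higher in hypoxia than in both other groups and CLDN20 lower in hypoxia than in freshly laid embryos.

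Partners of these genes were counted in lists that are not part of the member set. For hypoxia against normoxia, where 48.8% of all tested genes were called, the called share was 85.0% for the integrin adhesion complex, 72.2% for integrin ligands, 64.3% for epithelial regulators, 62.5% for connexins and pannexins, 61.5% for tight junction plaque genes and 57.1% for polarity genes, and lower than that of all genes for nectins and JAMs (44.4%), mesenchymal regulators (33.3%), and cadherin partners and desmosome genes (25.0% each). For hypoxia and for normoxia against freshly laid embryos the lists ran from 0 to 65.0% and from 22.2 to 58.3% called, against 40.3% and 31.2% of all tested genes. Differences between these shares were not tested. Among 20 genes of the integrin adhesion complex, which links integrins to actin, 13 were higher and 4 lower in hypoxia than in normoxia, with a median log2 fold change of 0.59. Against freshly laid embryos 7 were higher and 6 lower in hypoxia, and 1 was higher and 5 lower in normoxia. TLN1 (talin), which activates integrins, averaged 279, 65.8 and 148 CPM in hypoxia, normoxia and freshly laid embryos and changed by 2.08 ± 0.18, edgeR adjusted p = 1.25e-07, for hypoxia against normoxia. LIMS1 (PINCH), a partner of integrin-linked kinase, averaged 14.4, 48.1 and 50.9 CPM and changed by -1.74 ± 0.17 against normoxia and -1.82 ± 0.17 against freshly laid embryos in hypoxia. Of 18 integrin ligands 9 were higher and 4 lower in hypoxia than in normoxia, the largest rise being COL1A1 at 2.26 ± 0.49. Against freshly laid embryos 6 ligands were higher and 3 lower in hypoxia, and 2 were higher and 6 lower in normoxia. Among 13 tight junction plaque and membrane genes 7 were higher and 1 lower in hypoxia than in normoxia, led by the angiomotin family member AMOTL1 with means of 37.8, 12.2 and 14.5 CPM. For these genes hypoxia against freshly laid embryos gave 3 higher and 1 lower, and normoxia against freshly laid embryos 2 higher and 4 lower. CGN (cingulin), a plaque protein that binds ZO proteins, averaged 55.4, 18.7 and 41.2 CPM and changed by -1.14 ± 0.17 for normoxia against freshly laid embryos. Of 14 polarity genes 6 were higher and 2 lower in hypoxia than in normoxia, with PARD3 at 112, 49.1 and 52.4 CPM and CRB2 at 0.734, 7.36 and 5.47 CPM. Against freshly laid embryos 5 polarity genes were higher and 4 lower in hypoxia, and 1 was higher and 6 lower in normoxia.

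Among 8 tested cadherin and catenin partners 2 were higher in hypoxia than in normoxia, 3 were lower in normoxia than in freshly laid embryos and none was called in hypoxia against freshly laid embryos (edgeR; at an unadjusted p under 0.05 2 of the 8 passed, and DESeq2 and limma-voom called 1 each). PKP4 averaged 150.5, 87.1 and 139 CPM in hypoxia, normoxia and freshly laid embryos. CTNNB1 (beta-catenin), named here for its role and outside the naming rule, averaged 1185, 1498 and 1251 CPM and was not called. Of 9 nectins and JAMs 1 was higher and 3 lower in hypoxia than in normoxia. NECTIN3 averaged 14.7, 46.2 and 15 CPM and NECTIN4 51.3, 15.5 and 26.5 CPM, so that one was highest in normoxia and the other in hypoxia. JAM2, a junctional adhesion molecule of endothelium, averaged 8.25, 24.6 and 19.2 CPM and changed by -1.22 ± 0.21 for hypoxia against freshly laid embryos. The 8 tested connexins and pannexins split, with 2 higher and 3 lower in hypoxia than in normoxia. GJA1 (connexin 43) averaged 30.2, 101 and 19.6 CPM and changed by 2.36 ± 0.37 for normoxia against freshly laid embryos. Of 4 tested desmosome genes PKP3 was higher in hypoxia than in both other groups, at means of 54.5, 20.1 and 31.4 CPM. For hypoxia against freshly laid embryos PKP3 was no longer called with total-count scaling (log2 0.47), and its adjusted p ran from 0.00231 to 0.0689 over the 23 alternatives.

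Among 12 regulators of the epithelial to mesenchymal transition and mesenchymal genes, 6 were higher and 1 lower in normoxia than in freshly laid embryos, with a median log2 fold change of 1.37. In hypoxia 5 were higher and 1 lower than in freshly laid embryos, and 1 was higher and 3 lower than in normoxia. Of all tested genes, 15.2% were higher and 16.1% lower in normoxia than in freshly laid embryos. For hypoxia these shares were 20.9% and 19.4% against freshly laid embryos, and 25.7% and 23.2% against normoxia. SNAI2 (Slug), a repressor of cadherin genes in crest and mesoderm, averaged 1.24, 35.4 and 5.32 CPM in hypoxia, normoxia and freshly laid embryos, highest in normoxia as were CDH6, CDH7, CDH11 and CDH20. TWIST1 averaged 0.362, 6.71 and 0.0469 CPM, with 5 counts in all freshly laid libraries together. SNAI2 changed by -4.83 ± 0.69, edgeR adjusted p = 2.15e-05, for hypoxia against normoxia, and TWIST1 by 6.83 ± 0.69, edgeR adjusted p = 4.79e-06, for normoxia against freshly laid embryos. The change of TWIST1 without freshly laid replicate 5 was 8.34. Of 14 epithelial regulators 7 were higher and 2 lower in hypoxia than in normoxia, and 6 higher and none lower in hypoxia than in freshly laid embryos. In normoxia 4 were higher and 2 lower than in freshly laid embryos. The same shares of all tested genes stand beside these counts. At an unadjusted p under 0.05, and with DESeq2 and limma-voom, 0 of the 14 were lower in hypoxia than in freshly laid embryos. TFAP2C, a factor of surface ectoderm, averaged 161, 41.1 and 149 CPM and GRHL3 37.3, 69.3 and 31.9 CPM. Summed marker levels of other tissues also differed between the groups. The 5 epiblast markers found summed to 526 to 1196 CPM in hypoxia, 573 to 1015 CPM in normoxia and 1864 to 2184 CPM in freshly laid embryos, the 5 mesoderm markers to 108 to 219 CPM in hypoxia, 110.4 to 174 CPM in normoxia and 136 to 285 CPM in freshly laid embryos and the 12 yolk endoderm markers to 158 to 929 CPM in hypoxia, 133 to 904 CPM in normoxia and 52.8 to 124 CPM in freshly laid embryos. The 9 neural markers summed to 222 to 338 CPM in hypoxia, 167 to 246 CPM in normoxia and 216 to 452 CPM in freshly laid embryos, the 6 muscle and heart markers to 36.8 to 95.6 CPM in hypoxia, 14.3 to 25.3 CPM in normoxia and 17 to 33.2 CPM in freshly laid embryos and the 5 oocyte markers to 21.7 to 55.6 CPM in hypoxia, 19.9 to 32.8 CPM in normoxia and 16.3 to 20.2 CPM in freshly laid embryos. Defining markers at 0 were KRT23, MYOD1, MSGN1 and NEUROD1 in freshly laid embryos, and NEUROD1 and BMP15 in normoxia. Their part in the adhesion genes' values was not tested.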

How the data were processed

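RNA sequencing covered 15 embryo libraries, which the labels place in 3 groups of 5. What the authors deposited are raw counts for each gene, made with STAR and featureCounts, per the submitters' processing notes. Per the file headers, featureCounts 1.6.2 counted exons of the annotation of assembly rCheMyd1.pri with strand setting 2, keeping mapping qualities from 10 upwards; exon length per gene, used for levels per kb, was deposited by the authors in another column. A further 3 count columns belong to no listed sample and stayed unused. The 1 entry without a gene name stayed out of totals and tests (0.230 ± 0.106% of counts in hypoxia, 0.142 ± 0.0555% in normoxia and 0.114 ± 0.0780% in freshly laid embryos; SD, n = 5 each).

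The tests used edgeR 4.0.16 in R 4.3.3: filterByExpr, TMM scaling and 1 quasi-likelihood fit of 3 group means over all 15 libraries (12 residual degrees of freedom, common coefficient of variation 0.367). P-values were adjusted by Benjamini and Hochberg over all 16639 tested genes in each of 3 comparisons. Errors of log2 fold changes were derived from the edgeR test, as the absolute log2 fold change divided by the square root of the quasi-likelihood F. They thus hold no information beyond that test. The edgeR step was also run on simulated counts of the 10 libraries of each comparison, and the outcome is not given here. These counts had 1 fixed coefficient of variation and as many genes raised as lowered. They therefore did not probe the lower scaling factors of the hypoxia libraries. Alternatives were median-ratio and total-count scaling, no filter, DESeq2 1.42.0, limma-voom (limma 3.58.1), the 10 libraries compared alone, normoxia libraries with neighbouring title numbers summed, leaving out each library, and a term for the index number: 23 in all. Index number is the name used here for the number after S in the column headers (up to 11 against above). The headers do not state what it means, and the term was chosen after seeing the data. A replicate block on the title numbers in steps of 50, also chosen after seeing the data, was fitted besides.

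The members and the lists of partners and markers were chosen with earlier results of these data known. Values in every library are given for up to 4 called members per role with a mean of at least 2 CPM in the highest group, by smallest adjusted p, and for CDH1, CDH2, CDH11, EPCAM, OCLN, TJP1, F11R, CTNNA1, CTNND1, ITGAV, ITGA5, ITGA6, ITGB1, ITGB3, CLDN1 and CLDN5. Partner genes are named where they have the largest called change of their list in a comparison; CGN, PARD3, PARD6A, GRHL3, VTN, SPP1, KANK2 and CDH23 were chosen after their values were seen. ITGAL, CDH3, CDH9, CDH10, CDH24, ITGA4, ITGA8 and CTNNB1 are described outside this rule. A pair of genes outside the member rule, and 1 member and 1 partner gene, are not reported here; the last 2 stay in the counts, and the member is not drawn.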

Additional observations from a re-analysis of the deposited data

Results flagged for a closer look

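In 93 groups of 5 libraries (31 members in 3 groups), 8 had a library whose gap to its nearest neighbour exceeded Dixon's critical value for 5 samples; chance gives about 1 in 20. In hypoxia, replicate 4 was highest for CDH7 with 3.78 CPM and for CTNNA3 with 5.89 CPM. In normoxia, replicate 1 was highest for CDH20 with 50.3 CPM, for ITGA6 with 142.8 CPM and for TJP1 with 64.2 CPM, and replicate 2 was lowest for EPCAM with 626.8 CPM. In freshly laid embryos, replicate 1 was highest for CTNNA3 with 1.95 CPM and for ITGB6 with 7.10 CPM. The ITGB6 call for hypoxia against freshly laid embryos ended without that library. As given above, it also ended without hypoxia replicate 1, 3 or 4, or with a term for the index number. What sets these libraries apart was not tested.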

How the results depend on the processing

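Direction was kept by every called member under all 23 alternatives. All alternatives called 15 of the 20 members called for hypoxia against normoxia, 10 of the 17 for hypoxia against freshly laid embryos and 11 of the 15 for normoxia against freshly laid embryos. For hypoxia against freshly laid embryos, total-count scaling called 17 members lower where 9 were called with TMM. Over all tested genes it called 5259 lower where TMM called 3227. DESeq2 called 13 members higher where edgeR called 8. It was run without the low-count filter, so it could also call members that edgeR did not test. Leaving out 1 library each, that comparison gave 5 to 10 members lower, 7 to 9 higher and 12 to 18 in all, with 5 lower and 12 in all without hypoxia replicate 1. The same left-out libraries gave 18 to 22 calls for hypoxia against normoxia and 13 to 18 for normoxia against freshly laid embryos. Summing neighbouring normoxia libraries, which leaves fewer samples, called 17 and 11 members in these 2 comparisons. The labels name no link between libraries of different groups, but the title numbers fall into 5 steps of 50, each with 1 hypoxia and 1 freshly laid library and up to 2 of normoxia. Deviations from the group means correlated, across genes, at 0.0453 to 0.348 in the 15 pairs of a shared step, 9 of them above 0.1, and at -0.319 to 0.169 in the 60 other pairs, and 11 of 15 libraries were closest to one of their own step, a hint from the data and not from the design. With the replicate block on these steps 23 members were called for hypoxia against normoxia, 22 for hypoxia against freshly laid embryos and 16 for normoxia against freshly laid embryos. No called member turned, and calls ended for ITGA6 in the first comparison, ITGA8 in the second, and CDH2 and ITGA3 in the third. Calls were gained for CDH4, CDH8, CLDN1 and CLDN18 in the first comparison. In the second they were gained for CDH4, CDH8, CLDN18, CLDN19, CTNNAL1 and ITGA4, and in the third for CLDN1, CLDN19 and ITGA2. CDH8 and CLDN18 were not tested in the main fit, so these totals come from different sets of tested members. Apart from total-count scaling, matching shares of all tested genes under the alternative fits are not given here. Counts of called members under those fits are therefore descriptions only. The causes of the shifts in calls between fits were not tested. Low counts in most libraries limit the 9 untested members, and depth limits those below 1 CPM, where single counts set the values.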

Other observations

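Other partners with called changes were spread over matrix, adhesion and epithelial genes. VTN (vitronectin), a ligand of ITGAV integrins, averaged 65.2, 32.9 and 16.3 CPM in hypoxia, normoxia and freshly laid embryos and changed by 1.999 ± 0.53 on the log2 scale for hypoxia against freshly laid embryos. TNN (tenascin-N) averaged 0.583, 4.49 and 1.36 CPM and changed by -2.92 ± 0.83 for hypoxia against normoxia, which was no longer called without normoxia replicate 1 (log2 -1.70) or with limma-voom (log2 -1.96), and its adjusted p ran from 0.000415 to 0.111 over the 23 alternatives. OVOL1, a transcription factor of epithelia, averaged 1.52, 0.937 and 0.0909 CPM and changed by 3.91 ± 0.90 in hypoxia and 3.21 ± 0.89 in normoxia against freshly laid embryos, and by 6.26 and 5.56 without freshly laid replicate 4. PRRX1, a factor of mesenchyme, averaged 6.89, 3.73 and 0.754 CPM and changed by 3.16 ± 0.73 for hypoxia against freshly laid embryos, and by 2.57 without hypoxia replicate 3. Connexin GJB1 averaged 6.68, 1.05 and 0.578 CPM and changed by 3.51 ± 0.95 for hypoxia against freshly laid embryos, and it was no longer called without hypoxia replicate 3 (log2 1.93), and its adjusted p ran from 0.000168 to 0.0649 over the 23 alternatives. Against normoxia GJB1 changed by 2.65 ± 0.90 in hypoxia, and it was no longer called without hypoxia replicate 3 (log2 1.06) or with limma-voom, a term for the index number or neighbouring normoxia libraries summed (log2 2.22 to 2.704), and its adjusted p ran from 0.00427 to 0.266 over the 23 alternatives. PLEKHA7, a protein of adherens junctions, averaged 10.2, 8.64 and 15.8 CPM and changed by -0.87 ± 0.25 for normoxia against freshly laid embryos, which was no longer called with neighbouring normoxia libraries summed (log2 -0.75), and its adjusted p ran from 0.00331 to 0.0915 over the 23 alternatives. FBLN5, an elastic fibre protein, averaged 0.0709, 0.544 and 0.594 CPM and changed by -2.93 ± 0.73 for hypoxia against freshly laid embryos, and by -3.52 without hypoxia replicate 1. SPP1 (osteopontin) averaged 0.436, 2.86 and 1.0 CPM and changed by 1.51 ± 0.47 for normoxia against freshly laid embryos. The focal adhesion gene TNS1 (tensin) averaged 15.3, 8.13 and 26 CPM and changed by -1.67 ± 0.25 for normoxia against freshly laid embryos. KANK2, which binds talin, averaged 16.9, 4.9 and 5.17 CPM and changed by 1.70 ± 0.28 for hypoxia against freshly laid embryos. AMOTL2, an angiomotin family member, was higher in both 36 h groups than in freshly laid embryos, at means of 63.1, 59.8 and 23.2 CPM, with log2 changes of 1.45 ± 0.19 in hypoxia and 1.37 ± 0.19 in normoxia. PARD6A, a polarity protein, was also higher in both, at means of 12.3, 9.21 and 3.92 CPM. LLGL1, another polarity protein, averaged 105, 61.1 and 159 CPM and changed by -1.38 ± 0.25 for normoxia against freshly laid embryos. EVPL (envoplakin), a desmosome partner, averaged 37.7, 56.8 and 22.2 CPM and was higher in normoxia than in freshly laid embryos by 1.36 ± 0.33. CDH23, a long cadherin of inner ear hair cells that carries a locus number in the deposited table, averaged 9.08, 13.5 and 6.12 CPM and changed by 1.14 ± 0.31 for normoxia against freshly laid embryos (edgeR adjusted p = 0.0109).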
